A study of Rattus norvegicus with 4 samples.

Results

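The genes described here encode enzymes that make prostaglandins and thromboxane, together with the enzyme that starts their breakdown. They are Ptgds, Ptgs1, Ptgs2, Ptges, Ptges2, Ptges3, Ptgis, Tbxas1, Hpgd and Hpgds, 10 of the 14004 genes listed with a symbol in the frontal cortex of newborn rats. Each was taken by its symbol, and each had 1 entry in every library. The set was chosen from the log2 ratios of BPA to control FPKM in these libraries, in which Ptgds was low. The values of the 10 genes in that comparison are therefore a description, without a test, and they support nothing further.

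Pregnant rats (Wistar on the labels, Wistar Furth in the study's methods) received 5000 µg of bisphenol A (BPA) per kg of body weight, or vehicle, each day from gestation day 1 until they gave birth. By the labels, frontal cortex was taken from pups on postnatal day 1. The study's methods name the prefrontal cortex and include pups a day older. RNA selected with oligo(dT) was sequenced in 4 libraries, a control and a BPA library of each sex. They are named control male, BPA male and so on, and values without a name follow the order male control, male BPA, female control, female BPA. The controls were pups of dams given vehicle only. For each sex and treatment 3 pups were used, from 6 independent litters in all, and the 6 mated females were divided between BPA and control. It is not stated whether a library pooled the pups, or which litter each pup came from. With so few litters, the male and female libraries of a treatment are likely to share dams. Each group was thus 1 library, and no spread between animals could be measured within a group. The libraries held an estimated 9256750 (control) and 9193250 (BPA) fragments in males and 8949500 and 8994500 in females. Expression is given as FPKM, the fragments assigned to a transcript after correction for transcript length and library depth, which allows levels to be compared between genes. At these depths 1 fragment on 1000 bases was worth 0.115 to 0.119 FPKM.

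As background, prostaglandins are signalling lipids made from arachidonic acid, which phospholipases and lipases free from membrane lipids. The cyclooxygenases Ptgs1 and Ptgs2 convert it to an unstable intermediate, from which terminal synthases make the separate prostaglandins, prostacyclin and thromboxane. Ptgds, the lipocalin-type prostaglandin D synthase, is both an enzyme and a secreted carrier of small lipophilic molecules. In the brain it is known from the leptomeninges, the choroid plexus and oligodendrocytes, and its protein is abundant in cerebrospinal fluid.

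The enzymes spanned a wide range of levels. Mean FPKM over the 4 libraries was 177.5 for Ptgds, 125.9 for Ptges3 and 12.4 for Ptges2. Hpgd followed at 1.24, and the other 6 lay between 0.155 (Ptgs2) and 0.653 (Hpgds). A mean FPKM of at least 1 was thus reached by 4 of the 10 enzymes, and 6 fell below it. From Hpgd downwards the ranges of neighbouring genes over the 4 libraries overlapped, whereas Ptges3 and Ptges2, and Ptges2 and Hpgd, did not. The order of the first 2 genes depended on the library, because Ptgds exceeded Ptges3 in both control libraries and lay below it in both BPA libraries.

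**Figure D1:**
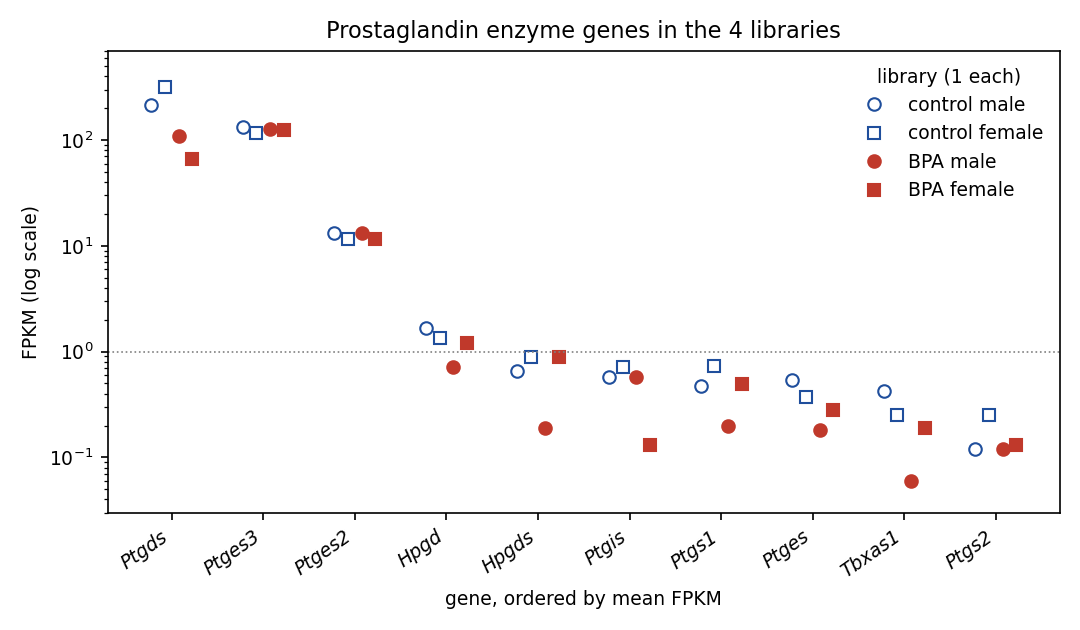
FPKM of the 10 enzyme genes (log axis) in the 4 libraries, 1 point per library; open symbols are control, filled symbols BPA, circles male and squares female, and the dotted line marks an FPKM of 1. Ptgds lay at 214.0 and 320.0 in the control libraries and at 109.1 and 66.9 in the BPA libraries, while the points of Ptges3 and Ptges2 lie close together.

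Ptgds (NCBI Gene 25526) had an FPKM of 214.0 with control and 109.1 with BPA in males, and 320.0 with control and 66.9 with BPA in females. Both BPA libraries lay below both control libraries, and the 2 control libraries also differed from each other, with the female one higher. The estimated fragments behind these values were 1385, 701, 2002 and 420 in the same order. The BPA library held 51.0% of the control level in males (95% interval for counting error only, 46.5 to 55.9%) and 20.9% in females (18.7 to 23.2%). As log2 ratios, taken after adding 0.5 to each FPKM, these are -0.97 and -2.25. The female ratio was the lower one, with 1 library on each side, and the difference between the sexes has no replicate check. By mean, the control libraries stood at 267.0 ± 74.9 FPKM and the BPA libraries at 88.0 ± 29.9 (SD, n = 2, a male and a female library each).

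The change in rank shows the same values in another form. Among genes with a symbol, Ptgds was number 256 of 13492 in control male and number 624 in BPA male. In the female libraries it was number 168 of 13541 with control and number 1114 with BPA. Of the summed FPKM of the 10 enzymes, Ptgds held 58.4% with control and 43.2% with BPA in males, and 70.7% with control and 32.4% with BPA in females. The ratio of Ptgds to Ptges3 within a library was 1.59 with control and 0.851 with BPA in males, and 2.75 with control and 0.537 with BPA in females. Such a ratio does not depend on how the libraries were scaled.

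The cyclooxygenases stand at the entry of the pathway, and both were scarce. Ptgs1, the constitutive form, had an FPKM of 0.47 with control and 0.20 with BPA in males, and 0.73 with control and 0.49 with BPA in females, from 12, 5, 18 and 12 fragments. The BPA library was the lower one in each sex, but the control male value lay below the BPA female value, so the treatments overlapped. Ptgs2, the inducible form, had 0.12, 0.12, 0.25 and 0.13 FPKM in the same order. These values rest on 2 to 4 fragments each, and no difference was detectable at this depth.

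Of the 3 genes named as prostaglandin E synthases, Ptges3, which also acts as the p23 co-chaperone of Hsp90, was the most abundant. Its FPKM was 134.5 with control and 128.1 with BPA in males, and 116.4 with control and 124.6 with BPA in females. The BPA values lay between the 2 control values, with log2 ratios of -0.07 in males and 0.10 in females. Ptges2, the membrane-associated form also called microsomal synthase 2, had 13.3, 13.2, 11.6 and 11.7 FPKM, and here the libraries fell into pairs by sex, with both male values above both female ones. Ptges, the inducible microsomal form that is coupled to Ptgs2, had 0.54, 0.18, 0.37 and 0.28 FPKM. Both BPA libraries lay below both control libraries, on 6, 2, 4 and 3 fragments. The 95% counting interval of its BPA to control ratio was 3.31 to 188% in males and 10.9 to 441% in females, which covers no change.

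The other terminal synthases were also scarce. Hpgds, the hematopoietic prostaglandin D synthase, is known from mast cells and microglia and makes the same product as Ptgds. It had an FPKM of 0.66 with control and 0.19 with BPA in males, and 0.88 with control and 0.88 with BPA in females, from 7, 2, 9 and 9 fragments. The BPA male library was the lowest, with a counting interval of 2.92 to 151% of control that covers no change, and the female libraries were equal. Ptgds exceeded Hpgds 324-fold with control and 574-fold with BPA in males, and 364-fold with control and 76.0-fold with BPA in females, the 574-fold value resting on 2 fragments of Hpgds. Ptgis, the prostacyclin synthase of vessel walls, had 0.57, 0.57, 0.72 and 0.13 FPKM. The male libraries were equal, with 9 fragments each, and the BPA female library was low, with 2 fragments against 11 (18.1% of control, counting interval 1.95 to 82.9%). Tbxas1, the thromboxane synthase of platelets and macrophages, had 0.42, 0.06, 0.25 and 0.19 FPKM, on 7, 1, 4 and 3 fragments. Both BPA libraries lay below both control libraries, and the counting intervals of both ratios covered 100%.

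Hpgd, the dehydrogenase that takes the first step in inactivating prostaglandins, had an FPKM of 1.69 with control and 0.72 with BPA in males, and 1.34 with control and 1.20 with BPA in females. Both BPA libraries lay below both control libraries, and the BPA male library was the lowest, with 11 fragments. It held 42.6% of the control level in males (counting interval 19.0 to 89.2%) and 89.6% in females (44.7 to 178%).

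Counted over the set, no enzyme had a log2 ratio of -1 or below in males and 1 of 10, Ptgds, did in females. Over all genes with a symbol, 1.18% of 13492 were as low in males and 2.21% of 13541 in females. Ptgds in males, at -0.97, lay just short of that limit. Both BPA libraries lay below both control libraries for 4 of the 10 enzymes (Ptgds, Ptges, Tbxas1 and Hpgd), and this held for 32.5% of 13029 genes. Since the same contrast proposed the set, nothing is read from these shares. The median log2 ratio of the 10 enzymes was -0.54 in males and -0.14 in females, against -0.04 and -0.06 over all genes. The male count depended on the number added to each FPKM. With 0.1 in place of 0.5, the scarce Hpgds, Ptges, Tbxas1 and Hpgd passed a log2 ratio of -1 in males, 4 enzymes in place of 0, and Ptgis joined Ptgds in females.

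The contrast of the sexes played no part in proposing the set and could be tested with limma, with treatment as a covariate. The test covered the 4 enzymes with a mean FPKM of at least 1. The log2 difference, female minus male, was -0.06 for Ptgds (standard error 0.192), -0.18 for Ptges2 (0.1), -0.12 for Ptges3 (0.0565) and 0.11 for Hpgd (0.291). None of the 4 passed an adjusted p of 0.05 in limma, the lowest being 0.61 for Ptges3. An unadjusted p under 0.05 was reached by 1 of them, and by 865 of all 10629 genes. Over all 10629 genes tested, limma called 11, or 0.103%. For Ptgds the female minus male difference was 0.58 between the control libraries and -0.70 between the BPA libraries, so the value near 0 averages opposite differences. This contrast left 1 residual degree of freedom. Without the filter on FPKM all 10 enzymes entered it, and none passed, with 0 below an unadjusted p of 0.05, against 756 of 13029 genes.

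The other genes of the pathway came from 4 lists, and for them the sexes served as replicates of a treatment in limma (2 control against 2 BPA libraries). The spread between dams is not measured by this fit. These lists, like the marker lists below, were chosen with earlier results of these data known, so their calls are a description. Of 59 genes listed, 48 were in the files and 29 reached a mean FPKM of 1. Of these 29, 2 fell with BPA, none rose and 27 did not pass, with 12 at an unadjusted p under 0.05, as 2244 of all 10629 genes had. Their median log2 ratio was -0.14, against -0.04 over all 10629 genes. Of all genes, 3.79% fell and 0.696% rose, 403 and 74 of the 477 called. With each library scaled to a common median, the 441 called split into 317 lower and 124 higher. No gene was called without the filter on FPKM, with 2410 at an unadjusted p under 0.05, and without control female 227 were called. With sex as a block 867 were called, and 3 of the 29.

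Among enzymes that release arachidonic acid, 1 of 9 fell, the monoacylglycerol lipase Mgll, which in brain frees arachidonic acid from an endocannabinoid. Its FPKM was 15.8 with control and 9.34 with BPA in males, and 15.0 with control and 10.3 with BPA in females. Both BPA libraries were low, and the log2 ratio was -0.63 (standard error 0.103, limma adjusted p = 0.00961). Without the filter on FPKM, with rows that have no symbol added, or without a variance trend, none of which can alter its log2 ratio of -0.63, the adjusted p from limma was 0.0636 to 0.11, over a range of 0.00417 to 0.11 for all settings. Leaving out BPA male raised the count of this list to 2. Pla2g12a, a secreted phospholipase, and Dagla, a diacylglycerol lipase, were the next most abundant, at log2 ratios of 0.08 and -0.05, and did not pass. The sign of Dagla was lost without BPA female, at 0.00.

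Prostaglandin receptors were scarce. Of 9 in the files, 2 reached a mean FPKM of 1 and neither was called by limma, with 0 at an unadjusted p under 0.05. Ptger1, a receptor for prostaglandin E2, had 3.66, 3.92, 4.62 and 4.89 FPKM. Ptger3, another receptor for it, had 2.83, 2.64, 3.53 and 2.52. Ptgdr, a receptor for the product of Ptgds, was listed at 0 in control male and BPA female and had 0.31 FPKM in BPA male and 0.52 in control female. The receptor for prostaglandin F, Ptgfr, had 0.88, 0.44, 0.68 and 0.23 FPKM, low in both BPA libraries and below the level tested.

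Of 11 genes tested in the list of transport, breakdown and other prostaglandin-related genes, 1 fell. This was Cbr3, a carbonyl reductase, with 3.68 FPKM with control and 1.56 with BPA in males, and 4.31 with control and 1.99 with BPA in females (log2 ratio -0.99, standard error 0.194, limma adjusted p = 0.0217). Both BPA libraries were low, but the call was lost in limma without BPA male (log2 ratio -0.85, adjusted p = 0.0531) and without control female (-0.88, 0.105), and the range over all settings was 0.0104 to 0.129. The most abundant genes of this list were the aldose reductase Akr1b1 (58.2 FPKM), Cbr1 (33.1) and Ptgfrn (22.5), at log2 ratios of -0.14, 0.00 and 0.22, and did not pass. Among 7 genes of other arachidonate routes, such as leukotriene synthesis and fatty acid desaturation, limma called none, with 4 at an unadjusted p under 0.05. Without BPA male 1 was called, and 1 with sex as a block. The desaturases Fads2 and Fads1 and the leukotriene A4 hydrolase Lta4h had log2 ratios of -0.13, -0.05 and -0.37.

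**Figure D2:**
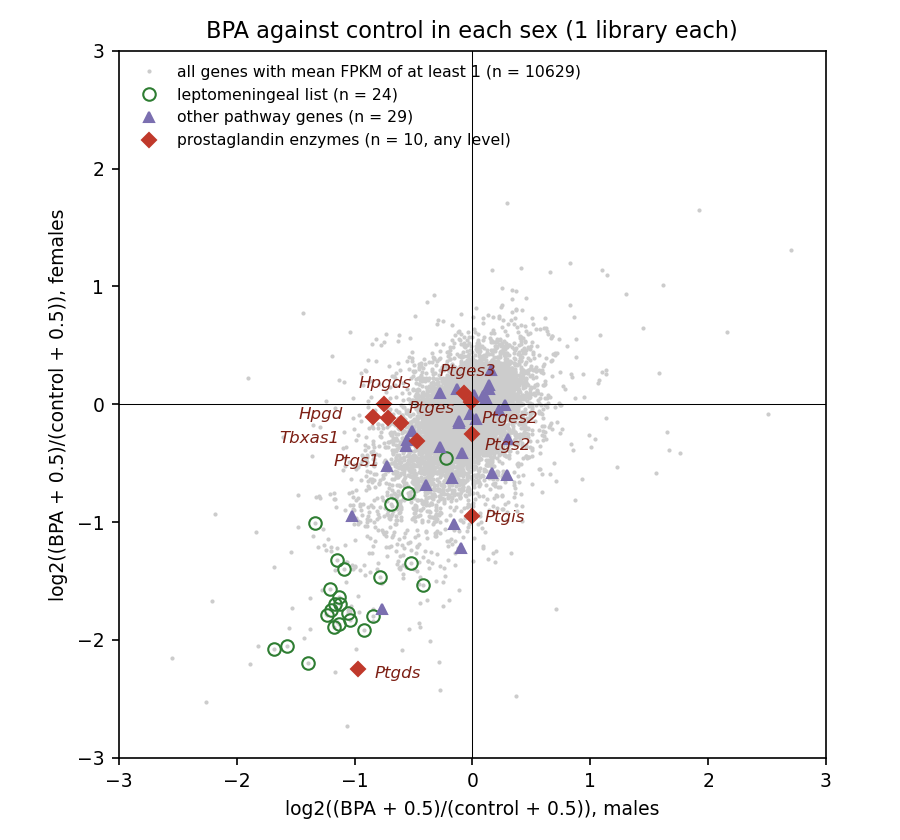
Log2 ratio of BPA to control, after adding 0.5 to each FPKM, in males (horizontal) and females (vertical), 1 library against 1 in each sex. Grey points are the 10629 genes with a mean FPKM of at least 1 (1 lies outside the axes), red diamonds the 10 enzymes, violet triangles 29 other pathway genes and green circles 24 leptomeningeal genes, and Ptgds lies at -0.97 and -2.25 beside the leptomeningeal genes.

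Markers of the leptomeninges, the thin coverings of the brain in which Ptgds is known to be made, moved with Ptgds. All 25 listed genes found in the files had both BPA libraries below both control libraries, as did 32.5% of 13029 genes. Of the 24 tested, limma called 20 as lower and none as higher, with a median log2 ratio of -1.40 against -0.04 over all genes. All 24 had an unadjusted p under 0.05 in limma (2244 of 10629 over all genes). This list was chosen with earlier results of these data known, so its calls and p-values are a description and not an independent test. With a mean FPKM of at least 5, 18 were called. Tbx18, which was called, and Foxd1 and Cdh1, which were not, had BPA values under 1 and reached the filter through the control libraries. Their summed FPKM was 535.1 with control and 277.2 with BPA in males, and 618.8 with control and 231.2 with BPA in females, or 51.8% of control in males and 37.4% in females. Without Igfbp2, the most abundant of them, the sum held 42.6% in males and 27.9% in females. The study's methods state that the meninges were completely removed. The 25 leptomeningeal genes had values above 0 in every library, except for Slc47a1, which was listed at 0 in BPA male. The part of the leptomeningeal genes in the result for Ptgds was not tested. In bulk tissue, fewer cells of a type and less RNA per cell cannot be told apart.

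Among these genes, the growth factor Igf2 had 61.2 FPKM with control and 18.7 with BPA in males, and 61.1 with control and 14.1 with BPA in females (log2 ratio -1.88, standard error 0.113, limma adjusted p = 5.99e-05). The collagen gene Col1a2 had 50.5, 21.7, 58.7 and 17.2 FPKM in the same order (-1.47, standard error 0.113, limma adjusted p = 0.000246). Gap junction gene Gjb2 (-1.81), tight junction gene Cldn11 (-1.80), Slc6a13 (-1.53), Col1a1 (-1.51) and Lum (-1.50) also fell. The most abundant gene of the list, Igfbp2, which other brain cells express too, had 114.5, 98.2, 129.9 and 94.6 FPKM, a smaller ratio of -0.34 (limma adjusted p = 0.0331). That call was lost without control female (-0.25, limma adjusted p = 0.215) and without BPA female (-0.31, 0.083), and the range over all settings was 0.00746 to 0.215. The number of leptomeningeal genes called was 17 to 22 with each library left out in turn, 13 with rows that have no symbol added, 7 without a variance trend and 0 without the filter on FPKM.

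Genes of the choroid plexus, another known source of Ptgds, were scarce. All 12 choroid plexus genes had a mean FPKM under 1, and their defining gene Ttr was listed at 0.35 FPKM in control female, at 0 in BPA female and in neither male library. Kcnj13, the most abundant of them, had 1.25, 0.45, 1.67 and 0.46 FPKM in the same library order. The summed FPKM of 11 choroid plexus genes was 3.07, 2.06, 3.77 and 1.79 in the same order, so that the BPA library held 67.1% of its control in males and 47.5% in females. Of these 11, Kcnj13 and Aqp1 were the 2 genes with both BPA libraries below both control libraries, which held for 32.5% of 13029 genes. The sum of the other 9 was 1.02, 0.89, 0.92 and 0.98 (87.3% and 107%). The median log2 ratio of the list was -0.09 in males and -0.10 in females. The part of the choroid plexus in the result for Ptgds was not tested.

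Of 11 oligodendrocyte lineage genes tested, limma called 1 as lower and 2 with sex as a block. It called none without BPA male, without control female, with scaled libraries, with the added rows, without a variance trend or without the filter on FPKM. The summed FPKM of this list was 149.2 with control and 140.5 with BPA in males, and 165.9 with control and 140.1 with BPA in females, and its most abundant gene was Olig1, at 40.4. Among other carriers of lipids and small molecules, a group to which Ptgds belongs as a lipocalin, 3 of 7 fell. The count was 6 with sex as a block, and 0 with the added rows, without a variance trend or without the filter. Among the 3 were Apoe, the main lipid carrier of the brain (-0.99, limma adjusted p = 0.00358), and the retinoic acid carrier Crabp2 (-0.98, limma adjusted p = 0.0374), which the leptomeningeal list also holds. The call of Crabp2 was lost without control female (-0.80, limma adjusted p = 0.0918) and without BPA female (-0.60, 0.0762), and the range over all settings was 0.000826 to 0.2. Apoe had 218.1, 139.9, 261.9 and 102.4 FPKM, low in both BPA libraries. The summed FPKM of 8 carriers was 329.0, 224.9, 376.2 and 173.9, and the BPA library held 68.4% of its control in males and 46.2% in females.

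Genes of the vessel wall and of the brain borders were lower in part. Among border macrophage genes, 2 of 4 fell, Lyve1 (-1.22) and Mrc1 (-0.95), and the list summed to 12.2, 6.78, 14.4 and 6.21 FPKM in the same library order. Of 10 mast cell genes in the files, 4 reached a mean FPKM of 1. Of these, 3 fell, the proteases Cpa3 (-1.94), Tpsab1 (-1.94) and Cma1 (-1.56). They reached that mean through the control libraries (2.01 to 4.83 FPKM), as their BPA values were 0.29 to 0.97, so the count rests on the filter. It was 2 without control male, 1 with the added rows or without a variance trend, and 0 without the filter or with a mean of at least 5. The receptor Kit, which neurons express too, had a log2 ratio of 0.12. The mast cell sum was 31.1, 23.8, 28.1 and 21.1 FPKM, most of it from Kit, and 13.8, 3.38, 9.57 and 2.41 without Kit (24.5% of control in males and 25.2% in females). Endothelial genes fell in 4 of 11 cases, among them Tek (-0.83) and Cdh5 (-0.77), with Cldn5 the most abundant at 57.3 FPKM, and summed to 151.6, 127.1, 175.2 and 112.6. Mural cell genes fell in 2 of 7, Acta2 (-0.92) and Rgs5 (-0.49), and summed to 59.1, 48.1, 66.1 and 48.0. Without control female the counts were 0 of 11 for endothelium, 1 of 7 for mural cells and 1 of 4 for border macrophages. Without BPA female they were 2 of 11 for endothelium and 1 of 4 for border macrophages. For endothelium, mural cells and border macrophages alike, 0 were called with the added rows, 1 without a variance trend and 0 without the filter. With a mean of at least 5 the counts were 3 for endothelium, 1 for mural cells and 0 for border macrophages.

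Of the astrocyte and radial glia genes, 6 of 10 fell, led by the connexin gene Gjb6 (-1.64). The other 4, Fabp7 (-0.32), S100b (-0.26), Aldh1l1 (-0.15) and Hes5 (-0.07), did not pass. The count of called genes was 1 with the added rows, 1 without a variance trend and 0 without the filter. Their sum was 749.9, 625.0, 758.3 and 536.9 FPKM, of which Fabp7 was the most abundant gene. Of the cortical neuron genes, 1 of 11 fell (Slc17a7, -0.79) and 2 rose, among them Neurod2 (0.50), 5 were called with sex as a block and 0 without a variance trend or filter, and their sum was 3371, 3762, 3260 and 3576. Neurod6, a marker of cortical excitatory neurons, had 233.4, 255.3, 215.6 and 231.0 FPKM, high in every library. Striatal neuron genes rose in 4 of 8 cases, Drd2 (0.84), Penk (0.64), Rarb (0.58) and Ppp1r1b (0.45), and summed to 71.0, 104.0, 75.4 and 107.6. The striatal count was 2 without control male, 2 without BPA female, 1 with the added rows, 1 without a variance trend and 0 without the filter. The part of the vascular, glial and neuronal genes in the result for Ptgds was not tested.

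Limma called no gene of 4 further lists. For microglia, 0 of 12 were called, with 4 at an unadjusted p under 0.05, and 2 were called without control male, 2 without BPA male and 2 with sex as a block. The microglial sum was 72.4 FPKM with control and 67.6 with BPA in males, and 85.6 with control and 55.8 with BPA in females. For red cells, 0 of 3 were called (0 unadjusted), and 2 without BPA male, and their sum, mostly Hbb, was 482.7, 460.0, 459.2 and 369.7. Immediate early genes, which neuronal activity induces as it does Ptgs2, had 0 of 8 called (3 unadjusted) 1 without control male or BPA male and 2 with sex as a block, with a sum of 41.1, 35.2, 45.9 and 31.8 led by Dusp1. Genes of inflammatory induction had 0 of 3 called (1 unadjusted) and a sum of 22.3, 24.0, 28.1 and 20.9 led by Tnf. Of the platelet genes, 2 were in the files and neither was listed in all 4 libraries.

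**Figure D3:**
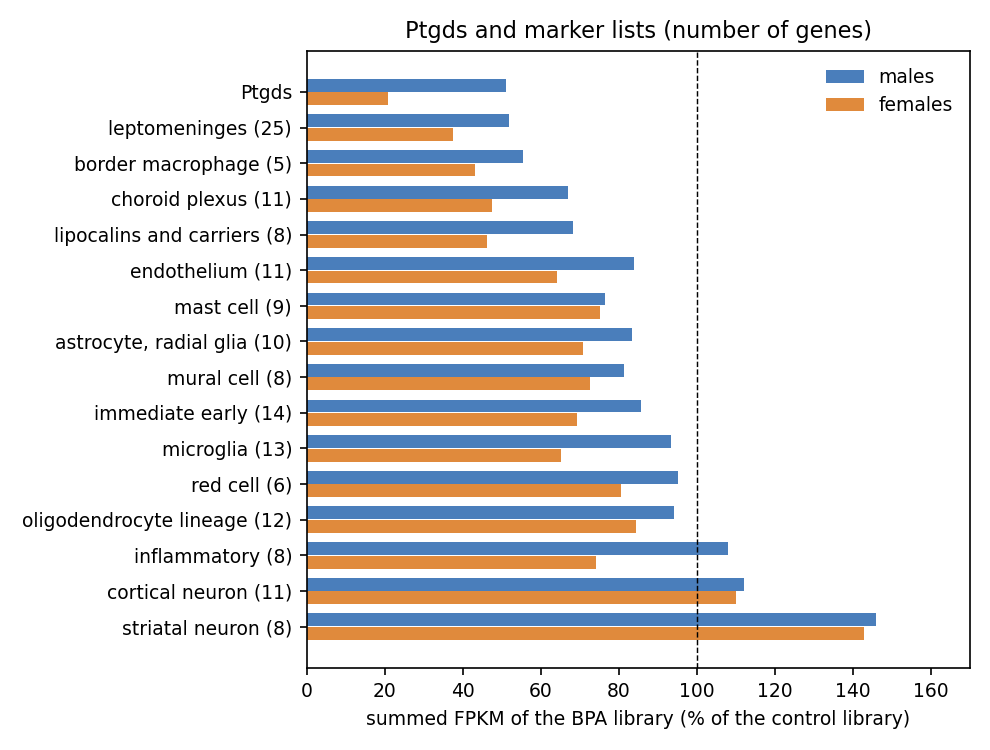
Summed FPKM of each marker list in the BPA library as a percentage of its control library, in males (blue) and females (orange), with Ptgds alone in the top row, the number of genes in parentheses and a dashed line at 100%. Ptgds stood at 51.0% and 20.9%, the leptomeningeal sum at 51.8% and 37.4% (42.6% and 27.9% without Igfbp2), and the striatal sum at 146% and 143%.

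The genes whose pattern over the 4 libraries came closest to that of Ptgds were sought among 10625 genes with a mean FPKM of at least 1. The measure was the Euclidean distance between log2(FPKM + 0.5) values after subtraction of each gene's own mean. Among the 10 nearest were Efemp1 (distance 0.127), Aldh1a2 (0.237), Sned1 (0.31), Col3a1 (0.318), Slc13a3 (0.326), Ogn (0.346), Emp1 (0.364), Slc6a13 (0.368) and Col18a1 (0.37). The median distance over all genes was 1.70, and a gene equal in all 4 libraries would lie at 1.73. Efemp1, which encodes an extracellular matrix protein, had 2.68 FPKM with control and 1.10 with BPA in males, and 3.96 with control and 0.56 with BPA in females. Aldh1a2, which makes retinoic acid, had 12.03, 6.11, 16.4 and 3.96. Both shared with Ptgds the order of the libraries, with control female highest and BPA female lowest. Gjb6, from the astrocyte and radial glia list, ranked 11 at a distance of 0.377. Of the 10 nearest genes 4, and of the 30 nearest 14, belong to the leptomeningeal list, which holds 24 of the 10625 genes compared. Nearness is measured from the Ptgds values that proposed the set, so nothing is read from these counts. These distances rest on 4 values from the same libraries and are a description.

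The genes beside Ptgds on the chromosome were also read. In the RefSeq gene order of the assembly GRCr8, used here for neighbours only, Paxx lies on one side and the lipocalin gene Lcn12 on the other. Paxx had 16.6 FPKM with control and 15.5 with BPA in males, and 16.4 with control and 14.6 with BPA in females. Lcn12 reached at most 0.31 FPKM. Farther out, Npdc1 had 107.8, 123.5, 110.5 and 116.7 FPKM and Edf1 86.6, 83.5, 94.3 and 87.9. Among the 5 genes on each side, the lowest log2 ratio was -1.41 in males (Clic3, at 1.62 FPKM in control and 0.30 in BPA) and -0.86 in females (Traf2, at 3.18 and 1.53). A gene similar to a member, Ptges3l1, had 8.51, 7.40, 9.74 and 5.10 FPKM, and how fragments were divided between it and Ptges3 is uncertain.

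Of the 10 enzymes, 7 matched a promoter in the RefSeq table of GRCr8, and Hpgds, Ptges2 and Ptgis are named only. The 250 bases before the start of Ptgds and of Ptges3 are shown because these were the most abundant enzymes, one with low BPA values and one without. The search covered both strands for the nuclear receptor half-site AGGTCA, the E-box CANNTG, the TATA box TATAAA, the CCAAT box CCAAT and the GC box GGGCGG. Capitals mark half-sites and E-boxes only. The Ptgds sequence is chr3:28682979-28683228 on the minus strand and that of Ptges3 is chr7:1075059-1075308 on the plus strand, each written 5′ to 3′ towards the gene.
Ptgds: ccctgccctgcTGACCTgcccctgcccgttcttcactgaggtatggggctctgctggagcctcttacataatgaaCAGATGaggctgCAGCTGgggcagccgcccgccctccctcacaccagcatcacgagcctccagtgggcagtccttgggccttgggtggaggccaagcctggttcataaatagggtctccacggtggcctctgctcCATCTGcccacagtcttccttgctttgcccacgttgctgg
Ptges3: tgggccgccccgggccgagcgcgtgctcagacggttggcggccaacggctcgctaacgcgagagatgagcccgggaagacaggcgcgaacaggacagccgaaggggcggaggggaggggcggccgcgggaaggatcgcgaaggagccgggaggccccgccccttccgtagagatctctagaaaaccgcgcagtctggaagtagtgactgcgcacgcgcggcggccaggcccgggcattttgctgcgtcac
The Ptgds sequence holds 1 half-site, read as TGACCT, which begins 239 bases before the start, and E-boxes at 175, 163 and 40 bases. It also holds GC boxes at 151 and 147 bases, which overlap each other, 62.0% G and C and 6 CG pairs. The Ptges3 sequence holds no half-site and no E-box, 4 GC boxes, 70.4% G and C and 33 CG pairs. Over 33469 promoters of the same length, 14.1% hold the half-site, 65.5% an E-box and 30.5% a GC box. Neither sequence holds the TATA box (12.9% of promoters) or the CCAAT box (34.0%) in these letters. The median over all promoters was 51.2% G and C and 5 CG pairs. Among the other 5 promoters none holds the half-site. A match describes the letters and is not evidence of binding.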

How the data were processed

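The authors selected RNA with oligo(dT), mapped reads to the rat assembly Rnor_6.0 (rn6) with Bowtie 2 and calculated expression with RSEM. The submitters' processing notes also name HISAT, and versions are not given in the sources used here. What they deposited is FPKM, which accounts for transcript length and library depth. The lowest value, 0.01, was taken as 0. Depth was recovered from the steps of FPKM, using length minus 60 bases. Per library, 544 to 576 scarce transcripts were used, and 92.8 to 94.1% of them lay within 0.1 of whole fragments. The depth was the one that brought these same transcripts closest to whole fragments. For a depth not fitted to them, chance gives 20%. Intervals are exact, at 95%, and cover counting error only.

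FPKM was taken per gene symbol. In R 4.3.3, limma 3.58.1 was fitted to log2(FPKM + 0.5) of the genes whose mean FPKM reached 1, with a variance trend and Benjamini-Hochberg adjustment over all genes, called at an adjusted p under 0.05. Treatment was the only term, with 2 residual degrees of freedom, or sex with treatment as covariate. Log2 ratios add 0.5 to each FPKM and understate changes of scarce genes. Whether a library pooled animals is not stated, and p-values measure the spread between these libraries, not between dams. Male and female libraries of a treatment differ in sex as well. limma was tested on simulated data. Other steps used Python 3.11.15, numpy 2.4.6, pandas 2.3.3, scipy 1.17.1 and matplotlib 3.10.9.

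The enzymes and the gene lists were chosen with earlier results of these data known. Named were all 10 enzymes, the 3 most abundant genes of each list and up to 6 called genes with the largest log2 ratios, from which examples are given, and the 10 genes nearest to Ptgds. Some genes that this rule names are not reported here. Alternatives covered the number added, the filter, scaling, rows without a symbol (planned as single transcripts, but each symbol has 1 row), the trend, the terms and each library left out. Counts of non-overlapping enzymes, fragment intervals, list sums without their most abundant genes and signs with scaled libraries were chosen after seeing the data.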

Additional observations from a re-analysis of the deposited data

Results flagged for a closer look

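The BPA to control log2 ratio had opposite signs in males and females for 2 of the enzymes. It was -0.01 in males and 0.02 in females for Ptges2, a difference of 0.03 (female minus male), and -0.07 and 0.10 for Ptges3, a difference of 0.17. The counting interval of the ratio covered 100% in both sexes for Ptges2, and for Ptges3 it was 89.9 to 101% in males and 101 to 114% in females. With the libraries scaled to a common median, Ptges2 had 0.03 and 0.06, the same sign, and Ptges3 had -0.03 and 0.14. Among the pathway genes named by the rule, the same was seen for Cbr1 (-0.13 and 0.13, difference 0.26) and Fads1 (0.03 and -0.13, difference -0.16). Among the marker genes named by the rule, the difference was 0.07 for the neuronal gene Stmn2 and -0.38 for the glucose transporter gene Slc2a1. It was -0.37 for the mural cell gene Pdgfrb, -0.45 for Dusp1, -0.69 for Tnf and -1.43 for the hemoglobin gene Hba-a1. Each sex had 1 library per treatment, and none of these differences was tested. With scaled libraries Stmn2 had the same sign in both sexes (0.03 and 0.10).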

How the results depend on the processing

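In the combined comparison, 477 genes were called. The number was 0 without the filter on FPKM (2410 at an unadjusted p under 0.05), 74 with rows that have no symbol added (13163 tested against 10629), 50 without a variance trend and 867 with sex as a block, and 227 to 465 with each library left out (227 without control female). Of the leptomeningeal genes, 20 were called, and 0, 13 and 7 under the first 3 of these settings, with 17 to 22 for single libraries left out. Of the other pathway genes, 2 were called, and 0 under each of those 3 settings, 1 where the filter asked for a mean FPKM of 5, 3 in the fit with sex as a block and 1 to 3 with a library left out. With sex as a block the called genes rose from 0 to 2 for microglia, 0 to 2 for immediate early genes, 0 to 1 for other arachidonate routes, 3 to 6 for carriers, 1 to 2 for oligodendrocyte lineage and 3 to 5 for cortical neurons. Between the sexes, 11 genes were called, against 2 without the filter, 2 with the added rows, 3 without a trend and 2 with sex as the only term. Leaving out a library leaves that contrast no residual degrees of freedom, so it was not run. Some of these settings differ in the number of genes or libraries used, and the cause of these changes was not tested.

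Log2 ratios of at least 1 in size were found for 206 genes in males and 335 in females. Adding 0.1 gave 1070 and 1362, adding 1 gave 85 and 169, and the added rows gave 726 and 878. A mean FPKM of at least 1 gave 124 in males. Adding 0.1 brought 4 enzymes past that size in males (0 otherwise) and 2 in females (1 otherwise). All 60 alternative log2 ratios of the enzymes moved by less than their counting error, but for scarce enzymes that error is wide and the comparison says little. Tbxas1 in males ran from -1.70 to -0.42, with a counting interval of 0.319 to 112% of control. For Ptgds the log2 ratios ran from -0.97 to -0.93 (males) and -2.26 to -2.20 (females). Each symbol has 1 entry, so genes could not be split into transcripts, and the added rows leave each gene's ratio as it was.

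Of 285 alternative values of named pathway and leptomeningeal genes, 36 lost the call and 6 changed sign with a library left out, none of them called. With each library left out, Dagla lay between -0.10 and 0.00, Ptger1 between -0.07 and 0.23, Cbr1 between -0.07 and 0.08 and Fads1 between -0.11 and 0.01. Sex as a block pairs the control and BPA libraries of a sex, and this is the only pairing that 1 library per group allows. Where a library is left out, the lone one of that treatment is assumed to vary like the others. The 6 enzymes below a mean FPKM of 1 have at most 18 fragments in any library, which limits what can be seen of them.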

Other observations

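Some pathway genes outside the rule for names were chosen after their values were seen, in both directions. Alox15, a lipoxygenase that oxidizes arachidonic acid, had an FPKM of 3.11 with control and 1.62 with BPA in males, and 2.70 with control and 0.46 with BPA in females. Its log2 ratio of -1.25 had a limma adjusted p of 0.0652 (standard error 0.333). Ptgr1, a reductase that inactivates prostaglandins and leukotrienes, had 1.08, 0.20, 0.81 and 0.10 FPKM in the same order, both BPA libraries low, and lay below the level tested. Slco2a1, which carries prostaglandins into cells, had 2.21, 2.03, 3.46 and 1.20 FPKM, a difference seen mainly between the female libraries (log2 ratio -0.66, limma adjusted p = 0.186). Pla2g4a, the cytosolic phospholipase that frees arachidonic acid, had 0.81, 0.39, 0.80 and 0.16 FPKM, on 21, 10, 20 and 4 fragments. Its BPA libraries both lay below both control libraries, as they did for 32.5% of 13029 genes. Pla2g4b, another phospholipase, had 3.02, 3.39, 3.17 and 3.61 FPKM (log2 ratio 0.15, limma adjusted p = 0.64). Faah, which breaks down an endocannabinoid, had 5.56, 5.63, 5.36 and 5.68 FPKM (0.05, limma adjusted p = 0.873). For Pla2g4b and Faah the BPA library was the higher one in each sex, and neither was called.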
